A study of Mus musculus with 3 samples.

Results

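Retinal ganglion cells (RGCs) of the newborn mouse retina are described here from single-cell RNA sequencing. The members are the 85 cells that the study's own annotation names RGCs among the 5706 cells of the library made at postnatal day 0 (P0), out of 14611 cells in the series. That library pooled 5 retinas of littermates on a mixed background, C57BL/6 / CD1 in the labels (C57BL/6NCrl mice outbred to CD1), in which a deletion allele of Sstr2, the gene of somatostatin receptor 2, segregated. Of these retinas 1 was wild type (Sstr2 +/+, called WT1), 2 were heterozygous (+/-, Het1 and Het2) and 2 were homozygous for the deletion (-/-, KO1 and KO2). The question behind the library was what loss of this receptor does to developing photoreceptors. Each retina was tagged with lipid-anchored oligonucleotide barcodes (MULTI-seq) after papain dissociation, so that 1 droplet library served all 5, and the numbers given to retinas of the same genotype are only names. The other P0 cells were named amacrine cells (1013), photoreceptors (1142), neurogenic progenitors (669) and primary progenitors (2797). The retina, not the cell, was the unit of replication. The labels do not tie retinas to animals, but the female transcript Xist, described below, was present in 1 retina and absent or nearly so in the other of each genotype with a pair, so those pairs did not come from 1 animal.

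RGCs are the projection neurons of the retina: they collect signals from bipolar and amacrine cells and send them along the optic nerve to the brain. They are the first neurons to leave the progenitor pool, under control of the factor Atoh7, and the transcription factors Pou4f2 and Isl1 then set up their programme of axon growth and survival. By birth their production in the mouse has largely ended, their axons have reached their targets, and many of them are being lost to naturally occurring cell death. Immature RGCs also secrete signals, among them sonic hedgehog, which acts back on progenitors, and neuropeptides.

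The label was checked against Pou4f2, Isl1, Sncg, Nefl and Rbpms. All 5 genes had at least 1 unique molecular identifier (UMI, a tag that counts each captured RNA molecule once) in 50 of the 85 RGCs, 4 of them in a further 24 and 3 in the remaining 11. Only 3 amacrine cells and 1 primary progenitor had 3 or more of the 5. RGCs were sequenced far more deeply than the rest, so every cell was also thinned at random to 3000 UMIs. At that depth 8 RGCs kept all 5 markers, 37 kept 4, 35 kept 3 and 5 kept 2. Across libraries, 9 cell barcodes of the P0 library recurred in the library of retinal explants and 7 in that of postnatal day 14 (P14), and in each comparison 1 of them belonged to an RGC. The doublet caller Scrublet marked 7 P0 cells (0.123%), none of them an RGC, and was not relied on at so low a share; barcodes had been assigned to single retinas before deposit.

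RGCs were rare and deep in every retina. They numbered 13 of 1207 cells in WT1, 19 of 1087 in Het1, 12 of 1254 in Het2, 26 of 1018 in KO1 and 15 of 1140 in KO2. The shares were 1.08% in WT1 (95% Clopper-Pearson interval 0.575 to 1.83%), 1.75% in Het1 (1.06 to 2.72%), 0.957% in Het2 (0.495 to 1.67%), 2.55% in KO1 (1.68 to 3.72%) and 1.32% in KO2 (0.738 to 2.16%). These intervals cover counting error only. KO1 had the highest share, while KO2 lay between the heterozygous retinas. The mean share was 1.93% ± 0.876 (SD, n = 2) in the retinas labelled KO and 1.26% ± 0.426 (SD, n = 3) in the others, a difference of 0.674 percentage points. An exact two-sided permutation test over the 5 retinas gave p = 0.3, and the smallest p this design allows is 0.1. Without KO1 the difference was 0.0552 percentage points. A share of captured cells also depends on how many RGCs survive dissociation, which was not measured.

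The median RGC held 24853 UMIs in WT1, 24821 in Het1, 24117 in Het2, 26035 in KO1 and 28722 in KO2. The medians of the other cells of the same retinas lay between 7236 and 8412.5 UMIs. No RGC had fewer than 10376 UMIs, and 72 of the 85 exceeded 20000, a depth reached by 111 of the 5621 other cells. The median RGC showed 5358 detected genes, against 2751 in amacrine cells, 1935.5 in photoreceptors, 2460 in neurogenic and 2930 in primary progenitors. After thinning to 3000 UMIs the medians drew together, at 1531 genes in RGCs, 1527 in amacrine cells, 1504 in photoreceptors, 1445 in neurogenic and 1452 in primary progenitors. Shallower cells were left out of the thinned values (0 RGCs, 3 amacrine cells, 123 photoreceptors, 5 neurogenic and 15 primary progenitors). Mitochondrial transcripts took 4.47% of RGC UMIs and between 3.78 and 4.48% in the other types. Ribosomal protein transcripts took 13.7% in RGCs, 16.0% in amacrine cells, 18.0% in photoreceptors, 22.1% in neurogenic and 22.7% in primary progenitors, so their share was lowest in RGCs.

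**Figure D1:**
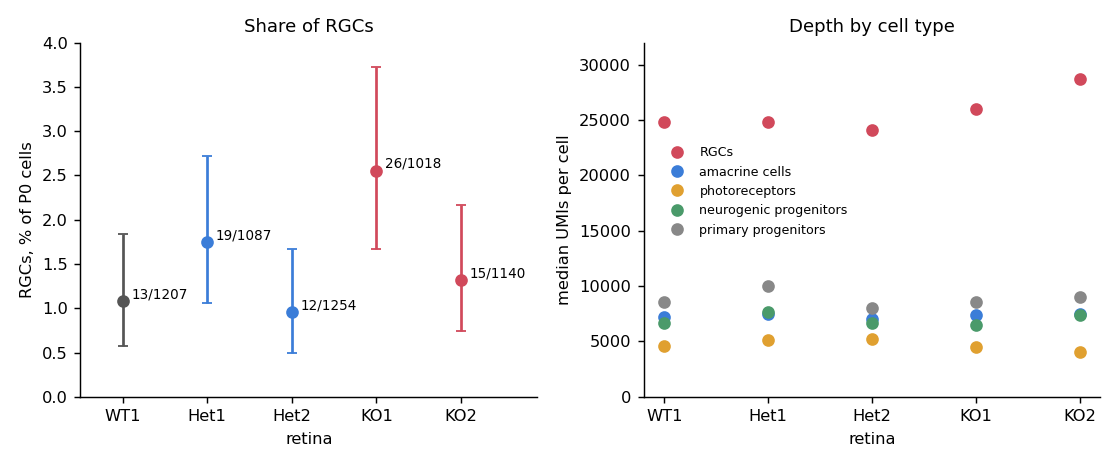
Left, RGCs as a percentage of the P0 cells of each retina, with 95% Clopper-Pearson intervals; right, median UMIs per cell by cell type and retina. KO1 has the highest share at 2.55%, and in all 5 retinas the RGC median (24117 to 28722 UMIs) lies above that of each other type.

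Identity was then described from UMIs summed over the cells of each type in each retina and scaled to the summed total of that type (CPM, counts per 1000000 UMIs). A gene was counted as RGC-high where its CPM in RGCs exceeded that in each of the other 4 types in all 5 retinas and its mean was at least 2 times that of the highest other type, and as RGC-low for the reverse. Of 12969 genes with at least 50 UMIs in the P0 library, 779 were RGC-high (6.01%) and 841 RGC-low (6.48%). With all cells thinned to 3000 UMIs, 396 genes were RGC-high, 336 of them in the first set. Because the annotation came from clusters of these same counts, the values are a description and were not tested. Levels below are means ± SD over the 5 retinas, in CPM.

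Transcription factors that specify RGCs were high in these cells. Pou4f1 (Brn3a), a factor of the same POU family as Pou4f2, was measured at 753, 922, 712, 580 and 516 CPM in WT1, Het1, Het2, KO1 and KO2, with a mean of 697 ± 159 in RGCs and 1.2 in photoreceptors, the next type. Pou4f2 (Brn3b), which is needed for RGC survival and axon growth, was measured at 174, 106, 122, 60.5 and 82.6 CPM in the same order, and its mean was 109 ± 43.1 against 0.378 in amacrine cells. Both were therefore near 0 outside RGCs in this library, and both were lowest in KO1 and KO2. Pou4f3 (Brn3c) averaged 94.1 ± 19.9 CPM in RGCs and had no UMI in any of the 5621 other cells; set against the limit of 3 UMIs over the least sequenced other type, it was at least 162-fold higher. Isl1, a LIM homeodomain partner of Pou4f2, was measured at 456, 424, 283, 303 and 362 CPM, a mean of 366 ± 74.7 against 33.2 in amacrine cells. Isl1 is thus the marker of the 5 that is least confined to RGCs relative to amacrine cells. Its ratio to amacrine cells was 11.0, against 18.2 after thinning to 3000 UMIs and 20.5 as a mean over cells.

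Among 19 assessed RGC transcription factors 11 were RGC-high and none RGC-low. Besides the POU and Isl genes these included Ebf1, a helix-loop-helix factor of postmitotic neurons (1239 ± 287 CPM against 30.4 in amacrine cells), its relative Ebf3 (164 ± 48.2 against 8.89) and Irx2, an Iroquois homeodomain factor (100.5 ± 42.8 against 0.198 in neurogenic progenitors). The neuronal factors Klf7 and Myt1l were higher by smaller margins, at 501 ± 68.2 against 116 and 308 ± 27.5 against 69.9 CPM in amacrine cells. Of the 8 factors that were not RGC-high, Tshz2 came near the rule at 116 CPM against 62.8 in photoreceptors, and the others were higher in another type. Irx5 averaged 195.5 ± 47.4 CPM in RGCs and 220.2 in primary progenitors, while in amacrine cells Sox11 was at 1428 CPM (820 ± 94.8 in RGCs), Zfhx3 at 739 (445 ± 76.5) and Nhlh2 at 296 (29.5 ± 13.7). Atoh7, which starts the RGC programme in neurogenic cells, was at 2.57 ± 2.04 CPM in RGCs (7 UMIs in all) and at 354 in neurogenic progenitors.

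**Figure D2:**
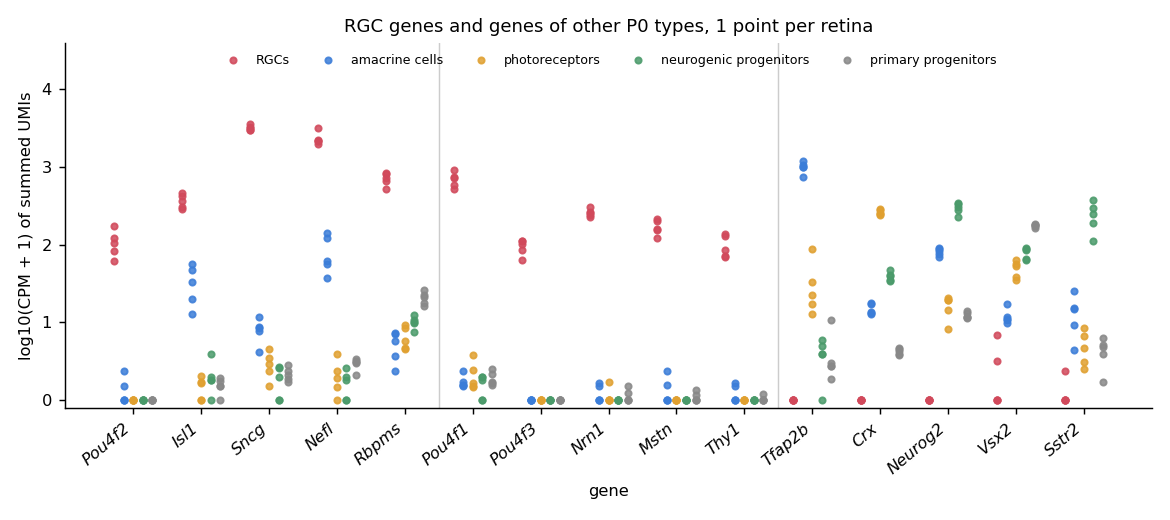
Level of 15 genes in the 5 P0 cell types, as log10(CPM + 1) of UMIs summed per retina, 1 point per retina. The first 10 genes sit highest in RGCs in all 5 retinas, and the amacrine gene Tfap2b, the photoreceptor gene Crx and the progenitor gene Neurog2 had no UMI in the 85 RGCs.

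Genes of the axonal cytoskeleton were high in RGCs. Sncg, gamma-synuclein, an axonal protein long used to mark RGCs, was measured at 3010, 3204, 3257, 2986 and 3579 CPM in WT1, Het1, Het2, KO1 and KO2 and averaged 7.21 in amacrine cells. Nefl, the light neurofilament subunit, was measured at 3154, 2159, 1951, 2161 and 2199 CPM against 83.1 in amacrine cells. Sncg varied little between retinas, whereas Nefl in WT1 stood apart from 4 retinas that lay between 1951 and 2199 CPM. After thinning to 3000 UMIs, Sncg was seen in 100% of RGCs in every retina and in 1.27% of amacrine cells, 0.819% of photoreceptors, 0.267% of neurogenic and 0.434% of primary progenitors. Of the 7 neurofilament and synuclein genes assessed, 5 were RGC-high, among them the medium neurofilament subunit Nefm (829 ± 160 CPM against 86.2). Nefh, the heavy subunit of mature axons, was detected in only 14 RGCs and averaged 7.93 ± 4.16 CPM.

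Of 50 axon growth and guidance genes, 19 were RGC-high, 2 RGC-low and 29 neither. The growth-cone protein Gap43 averaged 3294 ± 200 CPM against 132 in amacrine cells, and the microtubule regulator Stmn2 4442 ± 357 against 968. The adhesion molecules L1cam (197 ± 23.5 against 39.9) and Chl1 (55.9 ± 17.0 against 1.46), the semaphorin receptor subunit Nrp1 (76.2 ± 19.2 against 18.6) and the motor Kif5a (309 ± 38.9 against 53.5) were also RGC-high. Other growth genes differed less between types: Basp1 averaged 5043 ± 221 CPM in RGCs and 2691 in amacrine cells, and Marcksl1 837 ± 59.9 and 875. Robo3, a receptor for midline guidance cues, had no UMI in RGCs and averaged 10.2 CPM in amacrine cells, and Epha3 had 1 UMI, which made these the 2 RGC-low members. The netrin receptor Dcc (6.71 ± 2.69 CPM) and Robo1 (7.82 ± 9.54) lay below the amacrine levels of 17.5 and 76.1, while Robo2 was measured at 169 ± 24.5 in RGCs and 163 in photoreceptors.

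RNA-binding and surface markers of the class were also highest in RGCs. Rbpms, an RNA-binding protein used to count RGCs, was measured at 528, 816, 652, 713 and 844 CPM and had its next highest mean, 19.8, in primary progenitors. After thinning, 5.56% of primary progenitors and 0.889% of amacrine cells had a UMI of Rbpms, against 84.7% of RGCs. Nrn1, neuritin, a surface-anchored promoter of neurite growth, averaged 259 ± 29.5 CPM against 0.243 in amacrine cells, a ratio of 1067 with a counting interval of 298 to 8939 because so few UMIs lay outside RGCs. Thy1, the surface glycoprotein used to isolate RGCs, averaged 98.5 ± 33.0 CPM against 0.243. All 16 assessed members of the list of general RGC markers were RGC-high, but that list was chosen for this property. The 20 RGC-high genes with the largest ratios also included Mstn (myostatin, a secreted TGF-beta family member, 170 ± 37.1 CPM), Irx4, Scn9a, Chrnb3, Ablim3, Tmem163, Rgs10, Cpne4, Lrfn5, Kctd12, Nell2, Kitl and the lncRNA D130079A08Rik, which averaged between 56.3 and 319.6 CPM apart from Mstn.

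Genes for excitability and synapses were unevenly engaged. RGCs release glutamate, and Slc17a6, the vesicular glutamate transporter VGLUT2, averaged 138 ± 21.9 CPM in RGCs and 3.29 in photoreceptors, while Slc17a7 (VGLUT1) had no UMI in RGCs. The vesicle protein Syt4 averaged 1053 ± 149 CPM against 72.1 in amacrine cells, and Stx1a, a fusion protein of the release site, 61.4 ± 11.9 against 6.41. Of 24 genes of vesicle release 7 were RGC-high (29.2%), and the list summed to 4424 ± 313 CPM in RGCs, 1953 in amacrine cells and 1967 in photoreceptors. Single members such as Snap25 were nearly level, at 448 ± 76.1 CPM in RGCs and 432 in photoreceptors. Of 26 ion channel genes 9 were RGC-high, among them the sodium channels Scn1a (33.6 ± 10.3 CPM against 5.12), Scn2a (99.5 ± 15.5 against 14.9) and the potassium channel Kcnd2 (32.1 ± 13.4 against 1.44). Scn9a, outside the list, averaged 111 ± 9.56 CPM against 0.835. Of 19 transmitter receptors 3 were RGC-high: the nicotinic acetylcholine receptor subunits Chrna6 (24.4 ± 17.6 CPM against 0.0989) and Chrnb3 (56.3 ± 21.0 against 0.608), and the NMDA receptor subunit Grin1 (27.8 ± 5.95 against 10.4). The AMPA receptor subunit Gria2 was measured at 296 ± 96.4 CPM in RGCs and 347 in amacrine cells.

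Of 18 secreted factors 5 were RGC-high and 3 RGC-low, and some of them, such as Shh and Bdnf, are known to act on progenitors or on RGCs themselves. Shh, sonic hedgehog, was measured at 33.0, 31.9, 16.9, 15.5 and 24.6 CPM in WT1, Het1, Het2, KO1 and KO2 and at 0.716 in amacrine cells; 27 of 85 RGCs had a UMI. Bdnf, a neurotrophin, averaged 29.9 ± 16.8 CPM against 11.9, and Fgf12 and Pdgfa were RGC-high as well, at 205 ± 43.5 and 60.4 ± 13.0. Gal, galanin, was measured at 42.0, 85.6, 165, 108 and 22.3 CPM and varied several-fold between retinas, with KO2 lowest and Het2 highest. Gal had a UMI in 47 RGCs, and its highest other mean was 8.61 CPM in amacrine cells, so it missed the rule for RGC-high in at least 1 retina; after thinning it was seen in 12.7% of RGCs and in 1.63% of primary progenitors. Adcyap1, the neuropeptide PACAP, had 42 UMIs in 31 RGCs and none in the other cells. Npy, neuropeptide Y, had no UMI in RGCs and averaged 45.7 CPM in primary progenitors, and Mdk, midkine, averaged 8.48 ± 7.57 against 643 there. Somatostatin itself was not analysed here.

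The receptor under study was all but absent from RGCs. Sstr2 gave 1 UMI in the 85 RGCs, in KO1, out of 2290290 UMIs in all. In neurogenic progenitors of the same retinas it was measured at 112, 189, 248, 294 and 375 CPM in WT1, Het1, Het2, KO1 and KO2. Sstr2 RNA was therefore not lower in the retinas labelled KO; whether the 3′ tags counted here lie within the deleted part is not given in the sources used here, so the counts do not check the genotype. Sstr5 had no UMI in RGCs. The machinery to which such receptors couple was mixed: of 22 assessed genes of inhibitory G-protein and cAMP signalling, 7 were RGC-high, including Gnao1, the G-protein alpha subunit of neurons (509 ± 24.3 CPM against 153), Adcy1, a calcium-stimulated adenylyl cyclase (154 ± 36.4 against 13.9), and Rgs4, which ends G-protein signals (127 ± 45.6 against 3.1). The 3 RGC-low members were Rgs16, another such regulator, with 3 UMIs in RGCs and a mean of 181 CPM in neurogenic progenitors, and the cAMP-responsive factors Creb1 (24.5 ± 11.2 CPM in RGCs) and Crem (6.52 ± 3.44). The inhibitory subunit Gnai2 averaged 153 ± 39.1 CPM in RGCs and 780 in primary progenitors.

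Survival genes were mixed. Of 25 assessed members 5 were RGC-high: Ntrk2, the BDNF receptor TrkB (51.9 ± 11.6 CPM against 19.2 in amacrine cells), Ret, the receptor of GDNF ligands (26.3 ± 7.48 against 7.33), the axon survival enzyme Nmnat2 (40.3 ± 8.95 against 13.5) and the BH3-only death genes Bbc3 (109.7 ± 23.4 against 21.9) and Hrk (16.0 ± 9.36 against 1.14). The 2 RGC-low members were Bcl2l11, a further death gene of that class, with 4 UMIs, and Gfra1, a GDNF receptor subunit, with 2. Immediate early genes, which respond to stimulation and to dissociation, were not raised: 5 of 20 were RGC-low and none RGC-high, and Egr1 averaged 46.1 ± 31.2 CPM in RGCs and 734 in primary progenitors.

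Genes of dividing cells and of the other P0 types were nearly empty in RGCs despite their depth. Of 18 cell cycle genes 13 were RGC-low, and Top2a, a topoisomerase of dividing cells, averaged 2.17 ± 2.35 CPM against 1008 in primary progenitors. RGC-low genes numbered 9 of 12 primary progenitor markers, 8 of 12 neurogenic progenitor markers and 6 of 12 photoreceptor markers. Crx and Nr2e3 (photoreceptors), Neurog2, Olig2 and Dll4 (neurogenic progenitors) and Tfap2b, Gad1, Slc32a1 and Ptf1a (amacrine cells) had no UMI in any of the 85 RGCs. Of the 12 amacrine markers 6 were at 0 and 2, Gad2 and Ptf1a, were RGC-low, a rule that asks for the lower level against each other type in every retina. Lhx1, a horizontal cell factor, was at 0, whereas Onecut2, shared by horizontal cells and RGCs, averaged 50.7 ± 20.4 CPM against 159 in amacrine cells. Fabp7, a glial and progenitor gene, averaged 3.99 ± 2.67 CPM against 3561 in photoreceptors. Of the microglial markers 7 of 8 were at 0, and the 10 genes lowest in RGCs among abundant genes (Lockd, Pbk, Cp, Spc24, Kif11, Nr2e3, Gnb3, Esco2, Gm26669 and Gli3) had no UMI in RGCs. The exception was an RGC of KO1 that held the most UMIs of any, 45115, with 4 of the 5 markers and 9 of the 12 primary progenitor markers. It carried 38 of the 40 Hes5 UMIs in the RGCs of KO1, and no other RGC had more than 5 of these markers. Scrublet did not mark this cell, and whether it was a doublet was not otherwise tested.

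**Figure D3:**
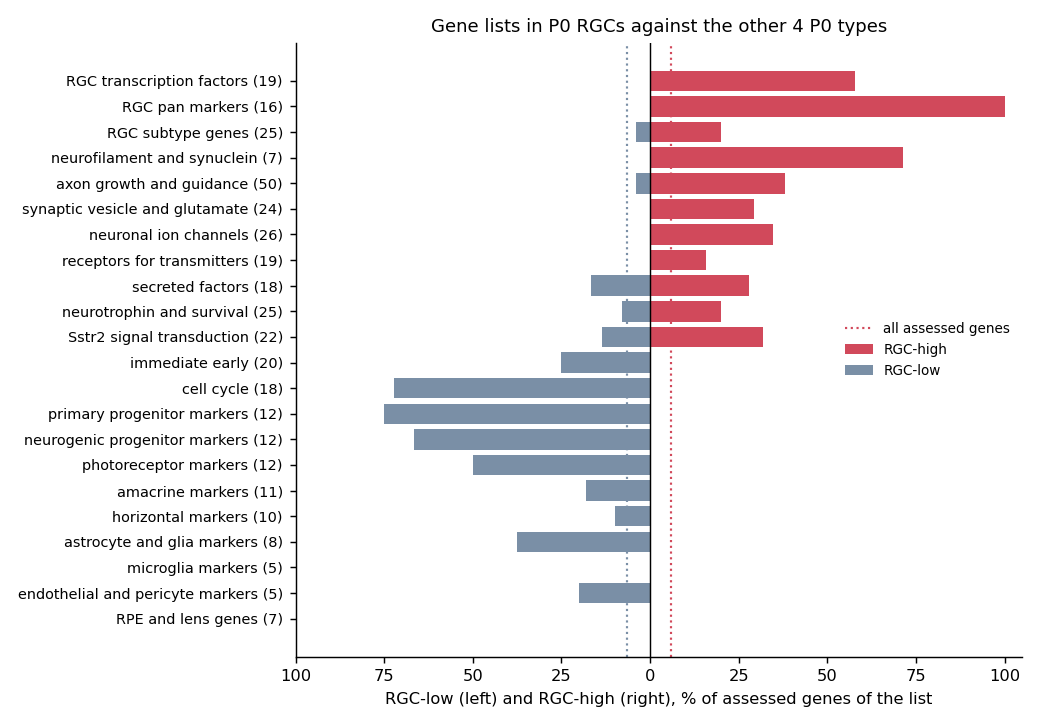
Share of the assessed genes of each list that were RGC-high (right) or RGC-low (left), with the number assessed in brackets; dotted lines give the shares over all 12969 assessed genes, 6.01% and 6.48%. Lists of RGC, axon and synapse genes extend to the right, and lists of dividing cells and of other P0 types to the left or not at all.

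The 85 RGCs were not alike. RGCs fall into many subtypes that differ in dendrite shape, visual response and transcription factor code, and some of that code is laid down before birth. Of 25 assessed subtype genes 5 were RGC-high (20%) and 1 RGC-low (4%), beside 6.01% and 6.48% of all assessed genes. The subtype list summed to 2697 ± 482 CPM in RGCs and 2749 in amacrine cells. Barhl2 averaged 76.0 ± 7.30 CPM in RGCs and 124 in amacrine cells. To compare cells of equal depth, each RGC was thinned to 10000 UMIs, and 34 subtype and identity genes were compared in 561 pairs, of which 22 had a Spearman correlation across cells of at least 0.4 in size (15 positive, 7 negative; median over all pairs -0.02). These correlations are across 85 cells of 1 library that share 5 retinas, and they are descriptions.

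The Foxp pair, forkhead factors that mark the small F-type RGCs, was the most tightly joined. Foxp1 and Foxp2 had rho = 0.59, and 13 of the 15 cells with Foxp2 also had Foxp1, where 6.00 would be shared if they were independent. Isl2 and Foxp2 had rho = 0.56. Pou4f3 and Tfap2d formed a further set, with rho = 0.56 and 15 of 19 Tfap2d cells holding Pou4f3; at full depth 23 of 24 did. Satb1 went with Tfap2d at rho = 0.50. Each of these 4 correlations was positive in all 5 retinas.

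The Iroquois factors ran against Isl1 and Barhl2. Irx3 and Irx4 were positively related (rho = 0.49), whereas Isl1 was inversely related to Irx3 (rho = -0.51) and to Irx5 (rho = -0.49). Irx2, seen in 32 thinned RGCs, and Barhl2, seen in 29, shared only 2 cells, where 10.9 would be shared if they were independent, and rho was -0.45. All 4 pairs kept their sign in 5 of 5 retinas. Calb2, calretinin, was inversely related to Zfhx3 (rho = -0.54), as was Sox11, a factor of young neurons (rho = -0.59).

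At full depth the POU factors were widely shared. Pou4f1 was found in 80 RGCs, Pou4f2 in 54 and Pou4f3 in 41; 49 RGCs had both Pou4f1 and Pou4f2, 25 had all 3 and no RGC lacked all of them. Isl1 was found in 70 RGCs, and 50 of the 54 Pou4f2 cells had it. Shh went with Isl1 in 26 of 27 cells. Because most RGCs had Isl1, most Pou4f2 and Shh cells would hold it if the genes were independent. By contrast, none of these 3 POU genes was found in more than 0.787% of primary progenitors at full depth.

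Genes of melanopsin RGCs, the intrinsically light-sensitive subtype, were found in a handful of cells. Eomes (Tbr2), a factor these RGCs need, was detected in 6 RGCs (0 in WT1, 1 in Het1, 0 in Het2, 2 in KO1 and 3 in KO2), and Opn4, melanopsin itself, in 5, of which 4 had Eomes. All 6 Eomes cells had Igf1, which 26 RGCs had in all. No RGC had both Eomes and Tbr1, a factor of other subtypes that was found in 11. With so few cells of each, little overlap would be found even if these genes were independent. Opn4 had no UMI in the 5621 other P0 cells. Eomes was not particular to RGCs: at full depth it was found in 7.06% of RGCs, 9.48% of amacrine cells and 0.0715% of primary progenitors, and after thinning to 3000 UMIs in 1.33% of RGCs and 5.35% of amacrine cells (means over retinas).

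**Figure D4:**
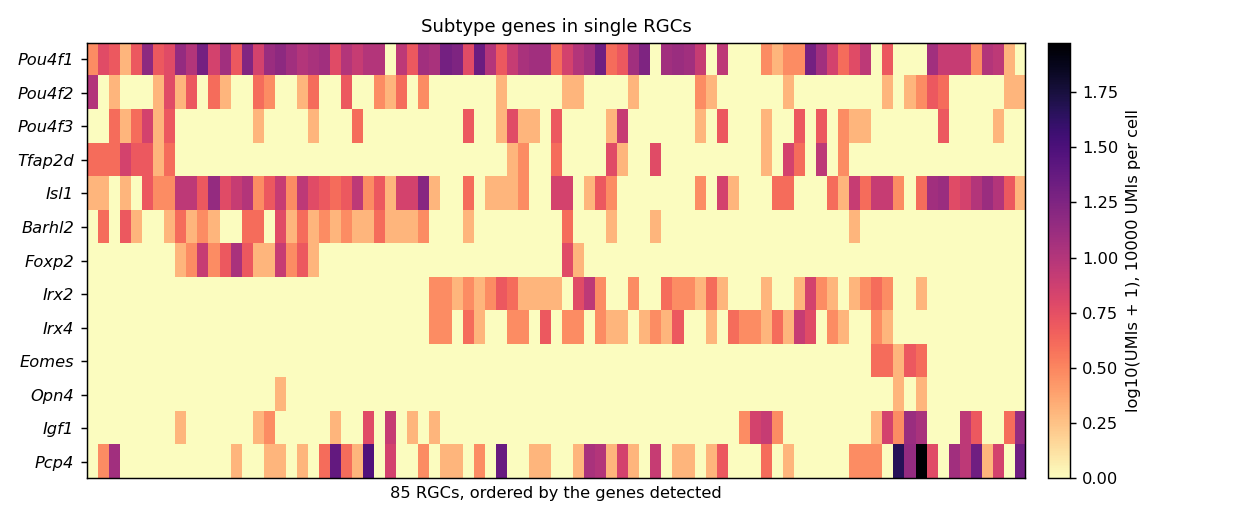
UMIs of 13 subtype genes in each of the 85 RGCs after thinning to 10000 UMIs per cell, as log10(UMIs + 1); columns are cells. Of the 19 cells with Tfap2d 15 show Pou4f3, and of the 32 cells with Irx2 only 2 show Barhl2.

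The genotypes were then compared in RGCs, with UMIs summed per retina and tested by edgeR's quasi-likelihood test over 6994 genes (adjusted p below 0.05). WT1 was the only wild-type retina, so its spread was taken from the other genotypes, and what is particular to WT1 and what belongs to the genotype cannot be told apart. Both comparisons share KO1 and KO2. A summed level mixes the number of RGCs with a gene and the UMIs in each, so the number of RGCs with a UMI is given beside it for Pcp4, Igf1 and Gm8797. Between the retinas labelled KO and WT1 46 genes were called (0.658% of those tested), 24 higher (0.343%) and 22 lower (0.315%) in KO. Between KO and heterozygous retinas 41 were called (0.586%), 19 higher (0.272%) and 22 lower (0.315%). DESeq2 on the same sums called 4 genes (0.0572%) and 2 genes (0.0286%). edgeR's estimate let no gene keep its own spread, and a robust version of the fit, added after this was seen, called 35 and 31. Without the KO1 cell that carried progenitor genes the counts were 22 and 15. Without KO2, 15 genes were called against wild type, and without WT1, 19 against heterozygous.

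Pcp4, a small calmodulin-binding protein of neurons (chr16:96467606-96525793, GRCm38), rose in KO by edgeR, DESeq2 and the robust fit alike. It was measured at 108, 344, 240, 794 and 945 CPM in WT1, Het1, Het2, KO1 and KO2. The retinas labelled KO lay above the other 3 without overlap. The log2 fold change was 2.95 ± 0.24 (SE) against wild type (edgeR adjusted p = 1.0e-29, DESeq2 adjusted p = 1.1e-12) and 1.54 ± 0.16 against heterozygous (edgeR adjusted p = 1.3e-19, DESeq2 adjusted p = 2.5e-07). The share of RGCs with a UMI of Pcp4 did not follow: 6 of 13, 12 of 19, 9 of 12, 18 of 26 and 10 of 15. In KO2 1 RGC held 293 of the 423 Pcp4 UMIs (69.3%). Without the richest cell of each retina the levels were 60.8, 199, 166, 566 and 322 CPM, and the groups still did not overlap. The richest cells of KO1 and KO2 had Eomes, and the Eomes cells held 193 of the Pcp4 UMIs in KO1 and 391 in KO2, against 6 in Het1. Without the 6 RGCs with Eomes the levels were 108, 359, 240, 585 and 92.2 CPM, so KO2 fell below the other retinas and the groups overlapped; only KO1 then stood above the rest. The log2 ratio of the mean CPM + 1 of KO to that of the other 3 retinas was 1.91 with these cells and 0.52 without them.

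Igf1, insulin-like growth factor 1, also separated the retinas labelled KO from the others, from fewer cells. It was measured at 21.0, 43.8, 0, 207 and 317 CPM, and had a UMI in 3, 6, 0, 11 and 6 RGCs. KO1 and KO2 were above all others, with log2 fold changes of 3.55 ± 0.40 against wild type (edgeR adjusted p = 4.7e-16) and 3.24 ± 0.27 against heterozygous (edgeR adjusted p = 6.5e-30). DESeq2 (adjusted p = 1.0 in both) and the robust edgeR fit (adjusted p = 0.55 and 0.45) did not call it. The RGCs with Eomes, all of which had Igf1, numbered 5 in the KO retinas and 1 in the others. Without them the levels were 21.0, 30.1, 0, 172 and 89.3 CPM, and the KO retinas still lay above the others.

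Gm8797 was lower in KO in both comparisons. Whether reads of its short gene model (chr3:5750806-5751295, GRCm38) are shared with similar copies was not tested, so its counts should be read with caution. It was measured at 255, 474, 246, 21.1 and 22.3 CPM in RGCs, with log2 fold changes of -3.60 ± 0.31 against wild type (edgeR adjusted p = 5.0e-27, DESeq2 adjusted p = 3.8e-08) and -4.08 ± 0.25 against heterozygous (edgeR adjusted p = 1.1e-53, DESeq2 adjusted p = 3.2e-15). Every RGC of WT1, Het1 and Het2 had a UMI of it, against 13 of 26 in KO1 and 7 of 15 in KO2. Amacrine cells of the same retinas showed the same order, at 277, 458, 227, 14.2 and 23.1 CPM, and the interaction test below did not call it.

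Mgat4c, a glycosyltransferase, was called against wild type and not against heterozygous retinas. It was at 12, 153, 74.3, 124 and 163 CPM in WT1, Het1, Het2, KO1 and KO2 (log2 fold change against wild type 3.48 ± 0.49, edgeR adjusted p = 1.4e-09, DESeq2 adjusted p = 0.092). WT1 was low and the KO and heterozygous retinas overlapped, so this difference rests on 1 wild-type retina of 13 RGCs.

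**Figure D5:**
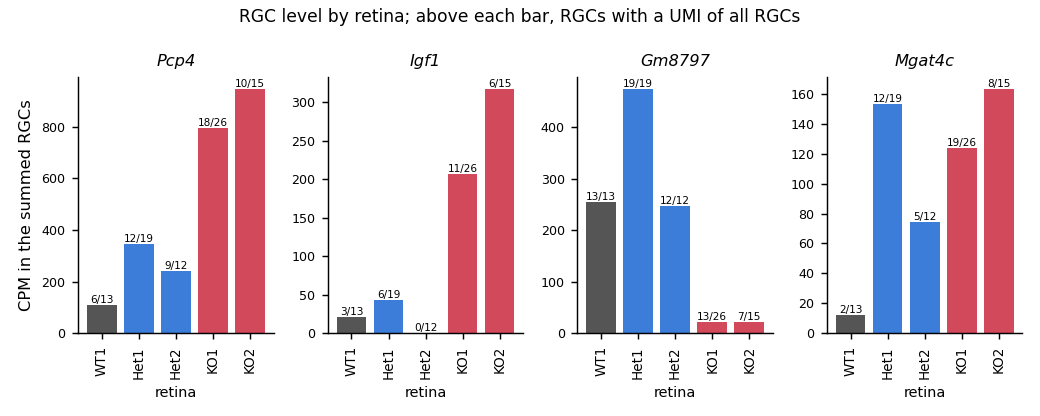
CPM of 4 genes in the summed RGCs of each retina, with the number of RGCs having a UMI over all RGCs above each bar. For Pcp4, Igf1 and Gm8797 the KO retinas stand apart from the other 3, and for Mgat4c the WT1 bar is the low one.

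Genes of RGC identity gave few calls at the adjusted threshold. Of 18 RGC transcription factors tested, Pou4f2 (log2 fold change -1.36 ± 0.29, edgeR adjusted p = 0.00099) and Ebf1 (-0.75 ± 0.15, edgeR adjusted p = 0.00013) were lower in KO than in WT1, and Pou4f1 was lower than in heterozygous retinas (-0.58 ± 0.14, edgeR adjusted p = 0.012). DESeq2 called none of these 3, and the first pair rests on 1 wild-type retina. These calls stand beside 0.658% and 0.586% of all genes tested. At an unadjusted edgeR p under 0.05 the list held 7 and 9 of 18 genes, beside 520 and 437 of all 6994, and by DESeq2 3 and 1, beside 64 and 41. The list's median log2 fold change was -0.27 against wild type and -0.13 against heterozygous, beside 0.01 and 0.00 over all genes tested. Nefl, at 3154 CPM in WT1 and 2161 and 2199 in KO1 and KO2, was lower than wild type (-0.58 ± 0.13, edgeR adjusted p = 0.0025) while the heterozygous retinas (2159 and 1951) lay with KO. Isl1, Sncg and Rbpms were not called in either comparison, with log2 fold changes between -0.52 and 0.51.

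Calls in the other lists at the adjusted threshold stand beside 0.658% (against wild type) and 0.586% (against heterozygous) of all genes tested. The lists are short, and whether their shares differ from these was not tested. Of 41 axon genes Alcam, an adhesion molecule of RGC axons, was lower in KO in both comparisons, at 78.0, 85.6, 57.4, 5.63 and 29.0 CPM (log2 fold change -2.41 ± 0.47 and -2.27 ± 0.38, edgeR adjusted p = 0.00013 and 3.0e-06, not called by DESeq2). Of 21 synaptic genes Cplx2, a complexin, was lower in both and Sv2c higher than in wild type, where it had no UMI. Gnai1, an inhibitory G-protein subunit, was the 1 of 16 genes of the Sstr2 signalling list that passed, higher than in heterozygous retinas (1.08 ± 0.26, edgeR adjusted p = 0.012). Egr1 was lower than wild type, and Jun and Dusp1 lower than heterozygous, of 11 immediate early genes. Of 22 subtype genes Neurod2 and Meis2 were lower than wild type and Foxp2 and Zic1 lower than heterozygous; Meis2 was at 291, 7.97, 260, 120 and 8.93 CPM, so KO1 and KO2 did not resemble each other, and the 52 UMIs of Zic1 came from 7 RGCs. At the adjusted threshold DESeq2 called no gene of the synaptic, Sstr2 signalling, immediate early or subtype lists in either comparison. No gene of 18 ion channels, 14 transmitter receptors or 13 mitochondrial transcripts passed edgeR in either comparison. At an unadjusted edgeR p under 0.05, reached by 520 and 437 of all 6994 genes, the subtype list held 11 and 11 of 22 genes, with a median log2 fold change of -0.14 and -0.33, and the immediate early list 4 and 7 of 11 (-0.71 and -0.49). The Sstr2 signalling list held 6 and 4 of 16 (0.09 and 0.02), the synaptic list 7 and 2 of 21 (-0.17 and -0.07) and the axon list 6 and 8 of 41 (-0.03 and -0.07). The ion channel list held 1 and 0, the receptor list 0 and 1, and the mitochondrial list none. DESeq2 at that level counted 3 and 3 subtype genes, 0 and 2 immediate early, 0 and 1 Sstr2 signalling, 2 and 1 synaptic, 2 and 1 axon, 0 and 0 ion channel, 0 and 1 receptor and no mitochondrial genes.

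Some calls followed 1 retina. Hes5, a progenitor gene, was called higher than in heterozygous retinas (56.3 CPM in KO1), where 38 of its 40 UMIs lay in the RGC with progenitor genes. Xist, the RNA of the inactive X chromosome of females, was at 0, 808, 0, 1.41 and 797 CPM, so Het1 and KO2 had it and the other retinas did not. Xist and its antisense partner Tsix were called higher than wild type with KO2 high and KO1 near 0. Rpl29, a ribosomal protein gene with many copies, was at 1410, 653, 790, 217 and 784 CPM. The heterozygous and the KO retinas each held 1 with Xist and 1 without or nearly so, and WT1 had none. In all, 11 genes were called in both comparisons, which share KO1 and KO2: Alcam, Atp1b1, Cplx2, D930028M14Rik, Gm8797, Igf1, Igfbpl1, Mast4, Pcdh9, Pcp4 and Rpl29.

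An interaction test asked whether the difference between KO and wild type in RGCs departed from that in all other P0 cells of the same retinas. Its wild-type side was WT1 alone, so what is particular to WT1 cannot be told apart from the genotype. Here too edgeR's estimate let no gene keep its own spread, and neither DESeq2 nor a robust fit was run. The test called 10 of 13554 genes (0.0738%), and with genes of at least 50 UMIs in RGCs it called 2, Igfbpl1 among them. Igfbpl1, a binding protein of insulin-like growth factors, was at 234, 109, 216, 106 and 58.1 CPM in RGCs and between 10.8 and 20.7 in the other cells, a difference of -1.86 (edgeR adjusted p = 0.0028). Igfbpl1 was high in the RGCs of WT1 and Het2.

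Cells named RGCs were also present in the explant library, from retinas of embryonic CD1 mice kept in culture with or without an Sstr2 agonist, and none of the 3298 cells at P14 bore the name. The 200 explant cells came from 8 explants, with 5 to 61 in each, and had a median of 3079.5 UMIs, below the 4217 of the other explant cells. Their medians over explants were 890 CPM for Isl1, 332 for Sncg, 242 for Nefl, 48.9 for Pou4f2 and 1309 for Gap43. They also held Tfap2b at a median of 419 CPM (229 to 647), an amacrine factor that had no UMI in the P0 RGCs. The libraries, both labelled P0, differ in strain, culture and depth, and the values were not compared by a test.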

How the data were processed

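Raw UMI counts per gene and cell were deposited by the authors, with their cell types, genotypes and sample barcodes; reads had been counted with Cell Ranger 3.1.0 on mm10 and handled in Seurat 3, per the submitters' processing notes. The study assigned barcodes to retinas with deMULTIplex and named cell types from cluster markers, and its filters on cells are not given in the sources used here. The deposited SCT values, the natural log of 1 plus depth-corrected counts, served an alternative only. Genes and lists were chosen with earlier results of these data known. Cells were used as deposited, with no doublets removed. UMIs were summed per retina and type. Depth per retina was 296252 to 710743 UMIs over its RGCs. Genotypes were fitted with edgeR 4.0.16 (TMM, filterByExpr, Benjamini-Hochberg adjustment) in 1 fit of 5 retinas. The tests were checked on simulated data in which every gene had the same spread. Such data cannot show how the tests treat genes whose level rests on 1 cell or 1 retina. DESeq2 1.42.0, limma 3.58.1, R 4.3.3, Python 3.11.15, scanpy 1.11.5 and SciPy 1.17.1 were used. Named genes were the members of the lists, the 20 highest and 10 lowest by ratio (with at least 100 UMIs in RGCs and 500 in the library), up to 30 called per genotype comparison and the 5 largest rises and falls without overlap among genes with at least 50 UMIs. Other genes of the calls were named after their values were seen. Coordinates are from GENCODE M21. A few genes named by these rules are not reported here.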

Additional observations from a re-analysis of the deposited data

Results flagged for a closer look

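Nefl in the RGCs of WT1, at 3154 CPM, was separated from the next retina by 0.793 of the range of the 5 retinas, beyond the 95% limit of Dixon's test. It was the 1 outlier among 31 values tested in groups of 5, where chance gives about 1 in 20.

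The interaction test called 10 genes whose KO to WT log2 fold change in RGCs differed from that in the other P0 cells (edgeR), and the values of 9 of them follow. All rest on WT1 as the only wild-type retina, and the fit let no gene keep its own spread between retinas. For Meis2, a homeodomain factor of amacrine and some other neurons, the difference was -2.04 (adjusted p = 4.8e-12). Its RGC levels split within the KO retinas (120 and 8.93 CPM) and within the heterozygous ones (7.97 and 260 CPM). For Mgat4c it was 3.35 (adjusted p = 0.00028). Igfbpl1 gave -1.86 (adjusted p = 0.0028), Egr1 -1.70 (adjusted p = 0.0082) and the LIM-only factor Lmo4 -1.01 (adjusted p = 0.0082). In RGCs of WT1, Het1, Het2, KO1 and KO2 Egr1 was at 96.0, 51.8, 20.25, 42.2 and 20.1 CPM. Lmo4 was at 444, 215, 341, 181.5 and 203 CPM in the same order. The sodium pump subunit Atp1b1 gave 1.81 (adjusted p = 0.010), with 69.0 CPM in WT1 and 205 and 270.2 in KO1 and KO2 while the other cells lay between 13.3 and 22.6. The zinc finger factors Tshz3 and Prdm8 gave -3.34 (adjusted p = 0.015) and -3.98 (adjusted p = 0.022), from at most 51.0 and 33.0 CPM in WT1. RGCs of Het1 and Het2 held Tshz3 at 11.95 and 13.5 CPM and Prdm8 at 1.99 and 27 CPM. Those of KO1 and KO2 held Tshz3 at 7.04 and 2.23 CPM and Prdm8 at 4.22 and 0 CPM. Nefl gave 0.80 (adjusted p = 0.030): it was lower in KO in both classes, and the other cells were at 25.8 CPM in WT1 and at 7.52 and 13.1 in KO1 and KO2.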

How the results depend on the processing

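The RGC share kept its direction under every alternative tried, with a difference of 0.0552 to 1.29 percentage points when 1 retina was left out. The number of RGC-high genes fell from 779 to 396 at 3000 UMIs per cell, and was 799 to 831 without 1 retina. Against wild type the 46 calls became 4 with DESeq2, 2 with limma on SCT sums, 24 with genes of at least 50 UMIs, 14 with RGCs thinned to 10000 UMIs, 22 without the RGC carrying progenitor genes (added after seeing the data) and 15 to 63 without 1 retina. Against heterozygous the 41 calls became 2, 1, 20, 6, 15 and 19 to 42 under the same changes. Other size factors, no filter and the robust fit stayed within 1.5 times (45, 43 and 35; 41, 35 and 31). The 10 interaction calls became 22 against amacrine cells alone, 2 with at least 50 UMIs in RGCs and 9 to 12 without 1 retina (added). Log2 fold changes reversed when 1 retina was left out against heterozygous for Rpl29 (-1.72 to 0.14, KO1) and Nrgn (-3.17 to 0.035, Het1), and the cause was not tested. That of Tsix against wild type fell to 0 without KO2, the 1 of the 3 retinas compared that had it. Without the RGCs with Eomes (added) the log2 ratio of Pcp4 in KO to the others was 0.52 in place of 1.91. DESeq2 kept 6 of 62 named calls. Where 1 retina remained in a genotype, it was assumed to vary like the others. No paired analysis was possible because retinas of different genotypes share no replicate number in the labels. With 85 RGCs, 12 to 26 per retina, genes seen in few cells rest on those cells.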
